A study of Mus musculus with 9 samples.

Results

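The genes described here are 39 components and target genes of the Wnt pathway, out of 57180 gene identifiers in a table of raw read counts from sorted intestinal stem cells of mice. They were taken by symbol through the GENCODE M21 annotation, and each symbol matched 1 identifier. By role they are 3 ligands, 2 genes for ligand export, 6 receptors and coreceptors, 3 Dishevelled transducers, 4 members of the destruction complex, 8 nuclear effectors, 7 feedback targets and 6 further targets of the crypt. The cells were Lgr5-GFP+ cells of the small intestine, isolated by fluorescence-activated sorting, and 9 libraries in 3 groups of 3 were sequenced. In the KO day 4 group, Lgr5-EGFP-CreERT2; Kansl1 f/f mice had received tamoxifen every day for 4 days. The KO day 3 group had the same genotype and 3 days of tamoxifen. The control group was labelled KANSL1-WT and had received corn oil. The labels do not state which Kansl1 or Cre alleles the control mice carried, how old the mice were, or whether the libraries of a group came from separate animals. The Lgr5 locus drove both the GFP used for sorting and the tamoxifen-inducible Cre, so deletion was directed to Lgr5-expressing cells. Tamoxifen and the knockout went together, so their effects cannot be told apart. KANSL1 is a scaffold protein of the nonspecific lethal (NSL) complex, which acetylates histones. The comparisons ask how the Wnt pathway genes differ after its loss and between the KO times.

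Wnt ligands are acylated by PORCN, carried to the cell surface by WLS and bound by a Frizzled receptor with LRP5 or LRP6 on the receiving cell. Without a ligand, the destruction complex of APC, AXIN, GSK3B and CK1α marks β-catenin for degradation. With a ligand, Dishevelled proteins inhibit that complex, and β-catenin enters the nucleus and activates targets with TCF/LEF factors, BCL9 proteins and PYGO2. Several targets, such as Axin2, Nkd1, Notum, Rnf43 and Znrf3, encode inhibitors of the pathway and form negative feedback. In the crypt of the small intestine the pathway maintains the stem cells, and Paneth cells, the secretory neighbours of the stem cells, are an epithelial source of WNT3.

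Library totals ranged from 8400458 to 21484679 counts. Transcripts of the mitochondrial genome took 66.9%, 69.3% and 72.1% of counts in the KO day 4 libraries, against 19.0%, 32.4% and 30.6% at KO day 3 and 25.8%, 16.4% and 17.8% in controls. Levels are therefore given as CPM, the count per 1000000 of a library size that was scaled by the trimmed mean of M values (TMM), which takes most genes as equal between libraries. The library labelled KO day 4 replicate 3 and KO day 3 replicate 1 stood apart from their own groups, with correlations of log2 CPM across genes of 0.857 to 0.863 and 0.910 to 0.914, against at least 0.969 among controls. Kansl1 was at 2.93, 5.09 and 8.96 CPM at KO day 4, 2.81, 2.99 and 2.55 CPM at KO day 3 and 4.46, 11.4 and 9.83 CPM in controls. The libraries labelled KO day 4 replicates 2 and 3 thus lay within the control range. Kansl1 was not called lower at either KO time by the edgeR test described below. Its log2 fold change was -0.63 at KO day 4 (edgeR adjusted p = 0.34) and -1.62 at KO day 3 (edgeR adjusted p = 0.12). Counts over the whole gene include exons that Cre leaves in place, so they check the labels only in part. All 5 stem cell markers (Lgr5, Olfm4, Ascl2, Smoc2, Slc12a2) were detected in each group. Their summed level was 2576 to 7220 CPM of nuclear counts at KO day 4, against 12390 to 17765 at KO day 3 and 18256 to 22021 in controls. By the same edgeR test, 4 of the 5 were called lower at KO day 4 against control, and Lgr5 was not. Its log2 fold change was -0.71 at KO day 4 (edgeR adjusted p = 0.092) and -0.18 at KO day 3 (edgeR adjusted p = 0.81). Summed Paneth cell markers stood at 108580 to 133670 CPM at KO day 4, 31137 to 48608 at KO day 3 and 18847 to 46395 in controls. They exceeded the stem cell markers of the labelled cell type in 3 of 3 libraries at KO day 4, 3 of 3 at KO day 3 and 1 of 3 controls. The sums are over 8 Paneth and 5 stem cell genes and are not corrected for length. Which sum is larger thus does not show which cell type prevailed. Mast cell markers were at 414 to 1149 CPM at KO day 4, 19.3 to 180 at KO day 3 and 0.10 to 0.58 in controls.

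At KO day 4, Wnt3, a ligand, and Nkd1, an inhibitor of Dishevelled, rose about 4-fold over control, and Fzd5, a Wnt receptor, fell. None of the other 33 tested members passed the test at that time. At KO day 3 no member passed it. Axin2, a widely used readout of the pathway, was not called at KO day 4 or at KO day 3. Of the 39 members, 36 passed the filter on low counts. Wnt6, Tcf7l1 and Notum did not, and are given below as counts.

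The test was the quasi-likelihood F-test of edgeR, with Benjamini-Hochberg adjustment over 13405 genes and a threshold of 0.05. In KO day 4 against control it called 2 members higher and 1 lower, 8.33% of those tested, beside 22.5% of all genes tested (11.1% higher and 11.5% lower). By edgeR the members' share was thus below that of the whole table. An unadjusted p under 0.05 was found for 8 members at KO day 4, beside 4899 of all 13405 genes. DESeq2 called 3 members higher and 2 lower, and limma voom 5 higher and 1 lower. The members' median log2 fold change was -0.26, and that of all genes -0.06. In KO day 3 against control edgeR called 0 members, beside 0.44% of all genes (0.142% higher and 0.298% lower), so at that time edgeR made few calls anywhere. An unadjusted p under 0.05 was found for 2 members, Myc and Porcn, beside 2123 of all 13405 genes. DESeq2 and limma voom each called 1 member, Myc. The shares of all genes called by DESeq2 and limma voom are not given here or below. At KO day 3 the members had a median log2 fold change of -0.07, and all genes one of -0.02. For 17 of the 36 members the 95% confidence interval at KO day 3 lay within a 2-fold change either way, and for 11 at KO day 4, and for the remaining members it reached beyond 2-fold. KO day 4 against KO day 3, which tests the difference between the KO times directly, gave 2 members higher, Wnt3 and Nkd1, and 0 lower, beside 12.5% of all genes (6.52% higher and 6.03% lower). At an unadjusted p under 0.05 by edgeR, 5 members were higher (Wnt3, Nkd1, Gsk3b, Ctnnb1 and Tcf7l2) and 2 lower (Fzd7 and Lgr4), beside 4026 of all 13405 genes. DESeq2 called 4 members higher, Gsk3b and Tcf7l2 among them, and limma voom called 2 higher. Each of these tools called 1 lower, Fzd7. All 3 comparisons share libraries, so they are not independent.

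**Figure D1:**
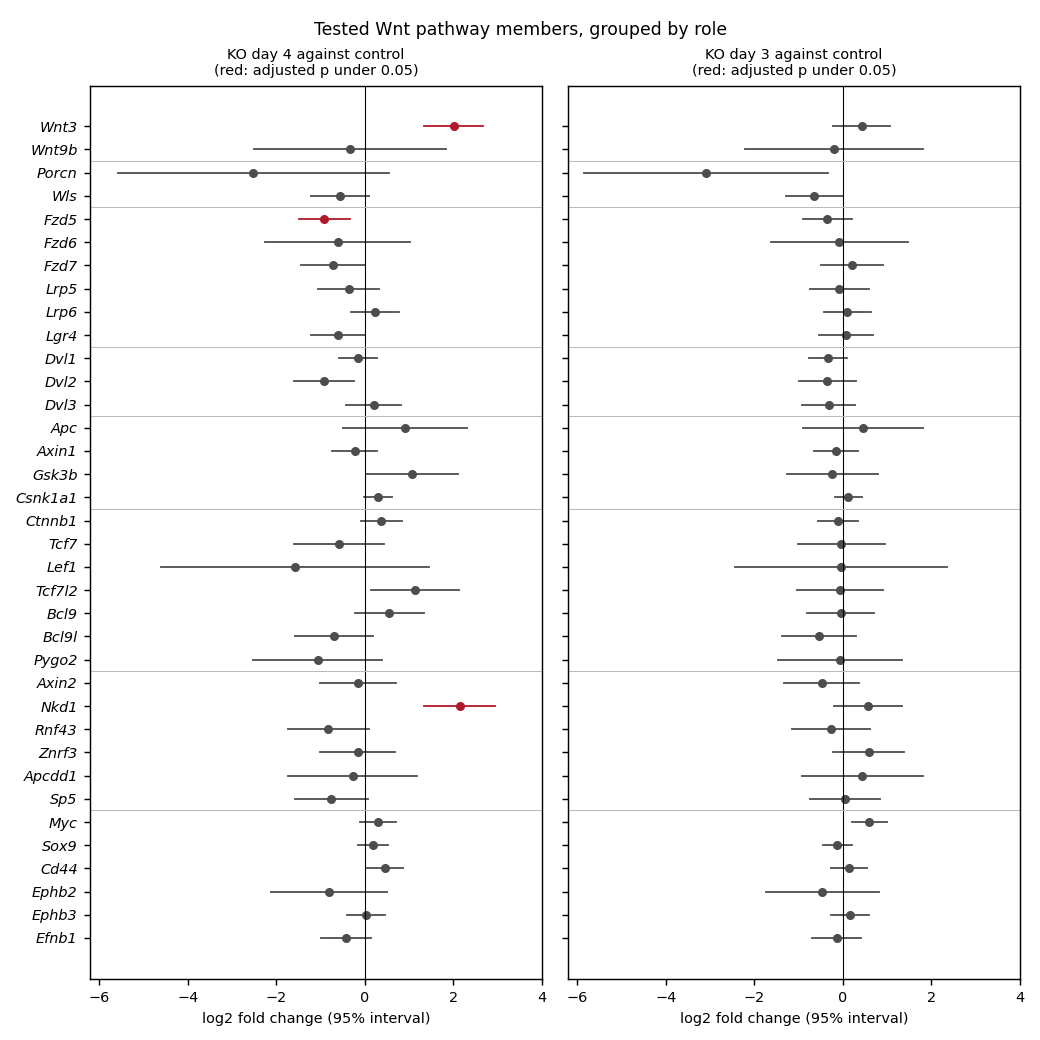
Log2 fold change (points) with 95% confidence interval (lines) of the 36 tested members, grouped by role, for KO day 4 against control (left) and KO day 3 against control (right). Wnt3 and Nkd1 lie to the right of 0 and Fzd5 to the left at KO day 4, in red for an adjusted p under 0.05, and no member is red at KO day 3.

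To show the regions from which the called members are transcribed, the upstream sequence of each is printed below, with that of Sp5, a feedback target whose window held the letters of a TCF/LEF core. The sequences are bases -250 to -51 relative to the transcription start in a RefSeq table of build GRCm38.p6, on the gene's own strand, in lower case, with the letters CTTTGA, a core of TCF/LEF sites, in capitals. The positions are chr11:103773925-103774124 (plus strand) for Wnt3, chr8:88527383-88527582 (plus) for Nkd1, chr1:64737801-64738000 (minus) for Fzd5 and chr2:70474673-70474872 (plus) for Sp5. The RefSeq start of Nkd1 lies inside the longer gene that GENCODE annotates from 88521354 to 88594884.
Wnt3: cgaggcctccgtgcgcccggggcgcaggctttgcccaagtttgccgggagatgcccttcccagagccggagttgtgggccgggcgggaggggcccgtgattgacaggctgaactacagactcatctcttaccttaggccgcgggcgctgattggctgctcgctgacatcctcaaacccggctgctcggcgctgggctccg
Nkd1: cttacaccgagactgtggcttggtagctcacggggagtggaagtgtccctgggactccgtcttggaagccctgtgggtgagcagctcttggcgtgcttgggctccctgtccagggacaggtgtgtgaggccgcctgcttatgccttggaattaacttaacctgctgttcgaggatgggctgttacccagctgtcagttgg
Fzd5: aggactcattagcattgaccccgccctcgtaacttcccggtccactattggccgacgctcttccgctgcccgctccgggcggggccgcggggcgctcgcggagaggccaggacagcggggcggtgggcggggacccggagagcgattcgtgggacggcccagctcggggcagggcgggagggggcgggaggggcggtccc
Sp5: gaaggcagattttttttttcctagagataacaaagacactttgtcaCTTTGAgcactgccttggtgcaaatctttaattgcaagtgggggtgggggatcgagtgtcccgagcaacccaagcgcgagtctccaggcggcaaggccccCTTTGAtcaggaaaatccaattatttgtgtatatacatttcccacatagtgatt
CTTTGA was searched on both strands of the 250 bases upstream. Sp5 held 2 matches, starting at -204 and -104, and the Wnt3, Nkd1 and Fzd5 windows held none. Of the 26 members found in the table, 3 (11.5%) had a match in at least 1 window (Gsk3b, Lef1 and Sp5), beside 15.8% of all 27025 genes in it. Base composition of the 250 bases differed between the called members. Fzd5 had 32 CpG dinucleotides and a GC content of 76.4%, Wnt3 22 and 68%, and Nkd1 6 and 58.4%, against medians of 6 and 52.4% over all windows. The letters alone show no site, and sites outside the window were not searched.

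Among the ligands, Wnt3 (ENSMUSG00000000125, chr11:103774150-103817957, plus strand) carried the change. It was at 30.6, 25.9 and 38.3 CPM at KO day 4, against 8.78, 9.58 and 13.0 CPM at KO day 3 and 11.1, 7.10 and 5.25 CPM in controls. The lowest KO day 4 library lay above every library of the other groups, while KO day 3 and control overlapped. The log2 fold change was 2.01 at KO day 4 against control (SE 0.30, 95% confidence interval 1.35 to 2.68, edgeR adjusted p = 0.0015). KO day 4 against KO day 3 gave 1.59 (SE 0.30, edgeR adjusted p = 0.0093), and KO day 3 against control 0.42 (SE 0.29, edgeR adjusted p = 0.53). The KO day 4 call held in 19 alternatives, with log2 fold changes from 1.79 to 2.34. It did not hold under scaling by library size alone, which gave 0.15 while the median of all genes moved to -1.95, so that Wnt3 stood 2.10 above that median. Wnt9b, a ligand, was tested at a level of about 1 CPM and had a log2 fold change of -0.34 at KO day 4 (edgeR adjusted p = 0.84), with an interval from -2.51 to 1.84. Wnt6, another ligand, had 0 counts in each KO day 4 library, 0, 6 and 0 counts at KO day 3 and 3, 5 and 4 counts in controls, too few to compare.

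**Figure D2:**
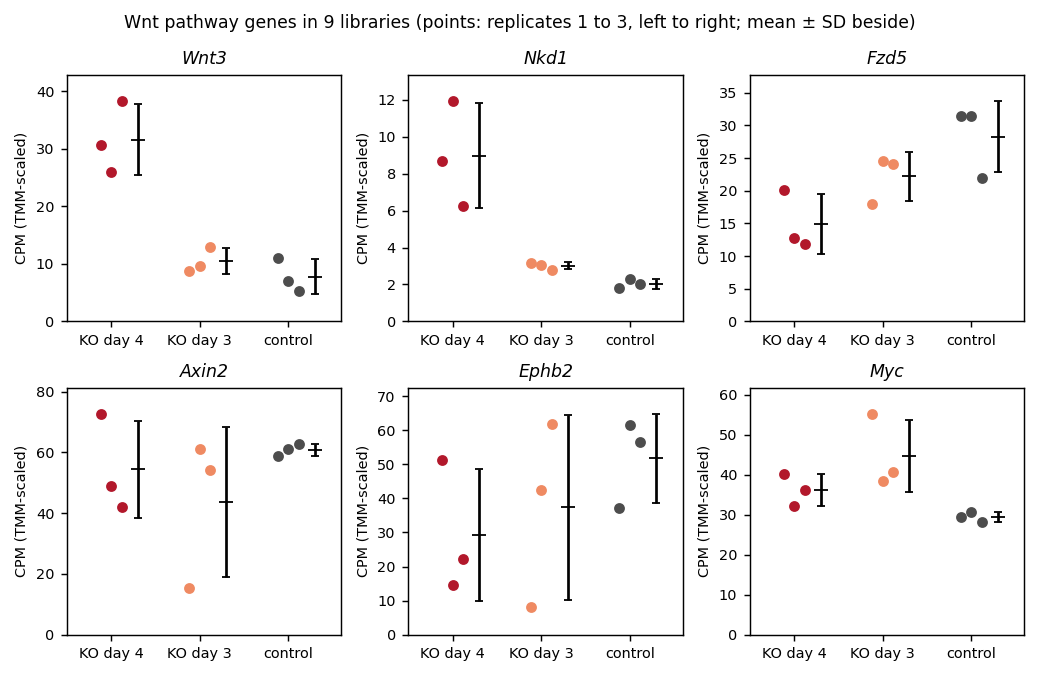
Level of 6 members in each of 9 libraries, as CPM of TMM-scaled library size on a linear axis from 0, with the mean and SD of 3 libraries beside the points. Wnt3 and Nkd1 are high in all 3 KO day 4 libraries, Fzd5 is below control in all 3, and Axin2 and Ephb2 are low in KO day 3 replicate 1, at 15.5 and 8.02 CPM.

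The rise of Wnt3 and Nkd1 went with a higher level of markers of several other cell types, Paneth cells among them. Tuft cell markers summed to 149 to 402 CPM of nuclear counts at KO day 4, 11.6 to 26.2 at KO day 3 and 6.64 to 7.96 in controls, with 6 of 6 called higher at KO day 4 against control. Enteroendocrine markers were at 271 to 427 CPM at KO day 4, 81.1 to 147 at KO day 3 and 37.0 to 107 in controls (6 of 7 higher), and goblet cell markers at 2983 to 4961 CPM at KO day 4, 1718 to 2380 at KO day 3 and 1660 to 2036 in controls (4 of 6 higher and 1 lower). Leukocyte markers stood at 29.0 to 69.6 CPM at KO day 4, 1.81 to 19.1 at KO day 3 and 0.40 to 1.51 in controls (4 of 4 higher), and myeloid markers at 23.1 to 75.8 CPM at KO day 4, 5.80 to 25.9 at KO day 3 and 4.12 to 8.41 in controls (2 of 5 higher). Enterocyte markers went the other way, at 116 to 159 CPM at KO day 4. They were at 245 to 247 CPM at KO day 3 and 281 to 317 in controls. Of 7 enterocyte markers, 1 was called higher and 2 lower at KO day 4 against control. Paneth cells, which are known to make Wnt3, are taken up here because their markers were the most highly counted. All 8 markers on the list (Lyz1, Defa24, Defa17, Defa30, Ang4, Itln1, Mmp7, Pla2g2a) passed the test as higher at KO day 4 against control, and none was at 0 counts in any group. Relative to 10000 counts of those markers, Wnt3 had 4.25, 3.61 and 4.12 counts at KO day 4, against 4.89, 3.59 and 6.42 at KO day 3 and 4.66, 7.55 and 6.24 in controls. Each KO day 4 library was thus below every control library on this scale, and within the KO day 3 range. Nkd1 had 1.20, 1.66 and 0.68 counts per 10000 marker counts at KO day 4, against 1.76, 1.15 and 1.38 at KO day 3 and 0.75, 2.42 and 2.40 in controls, and the groups overlapped. The part of the Paneth cell signal, or of the other cell types, in the Wnt3 and Nkd1 results was not tested further. In sorted bulk samples, more cells of a type and more RNA per cell cannot be told apart.

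**Figure D3:**
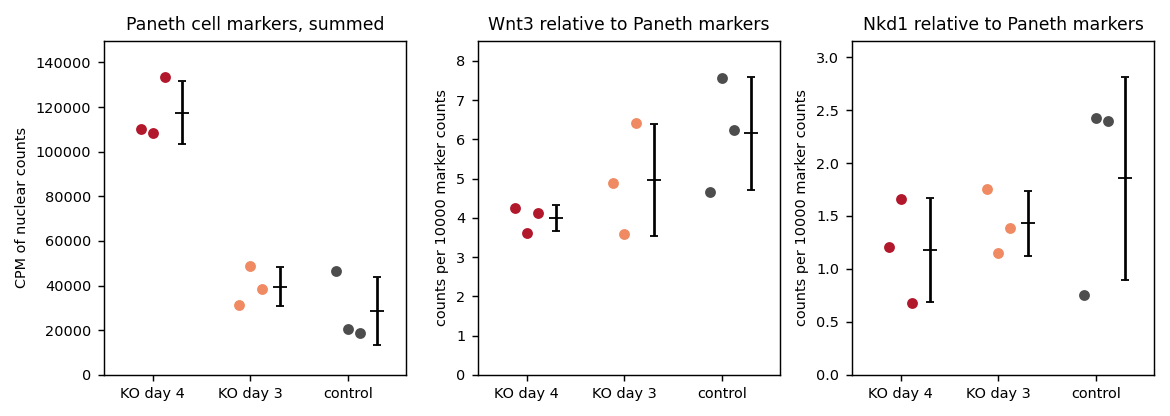
Summed Paneth cell markers in CPM of nuclear counts (left), and counts of Wnt3 (middle) and Nkd1 (right) per 10000 counts of those markers, in each library, with mean and SD of 3 beside the points. The marker sum is at least 108580 CPM at KO day 4 and at most 46395 CPM in controls, and Wnt3 relative to the markers is 3.61 to 4.25 at KO day 4 and 4.66 to 7.55 in controls.

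Neither gene for ligand export was called by edgeR, DESeq2 or limma voom, and only Porcn at KO day 3 had an unadjusted p under 0.05 by edgeR. Wls, the carrier of Wnt proteins, was at 21.1, 17.0 and 19.0 CPM at KO day 4, 9.81, 23.8 and 20.1 CPM at KO day 3 and 25.3, 24.2 and 34.8 CPM in controls. All 6 KO libraries lay below the lowest control. Wls had a log2 fold change of -0.56 at KO day 4 (SE 0.30, edgeR adjusted p = 0.20) and -0.64 at KO day 3 (SE 0.30, edgeR adjusted p = 0.32), and -0.35 at KO day 3 without replicate 1, the library that stood apart. Porcn, the acyltransferase, had 3 counts over the KO day 4 libraries against 64 over the controls, a ratio of 0.19 after scaling by TMM library size (95% counting interval 0.038 to 0.58). With 6 counts over the KO day 3 libraries it had the lowest log2 fold change of the members there (-3.10, SE 1.26, edgeR adjusted p = 0.26).

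Of the 6 receptors and coreceptors, Fzd5 was called lower at KO day 4 and the others were not called. Fzd5 (ENSMUSG00000045005, chr1:64730558-64737751, minus strand) encodes a Frizzled receptor. It was at 20.2, 12.7 and 11.9 CPM at KO day 4, 17.9, 24.6 and 24.1 CPM at KO day 3 and 31.4, 31.4 and 22.0 CPM in controls. Every KO day 4 library lay below every control, with 20.2 against 22.0 CPM as the closest pair, and KO day 3 overlapped both groups. Fzd5 had a log2 fold change of -0.91 at KO day 4 (SE 0.26, 95% confidence interval -1.48 to -0.34, edgeR adjusted p = 0.028). KO day 3 against control gave -0.35 (SE 0.25, edgeR adjusted p = 0.56), and KO day 4 against KO day 3 gave -0.57 (edgeR adjusted p = 0.17). The call rested on single libraries. The edgeR adjusted p was 0.093 without control replicate 1, 0.098 without control replicate 2, 0.089 without KO day 4 replicate 2 and 0.072 without KO day 4 replicate 3. With both libraries that stood apart left out it was 0.040.

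Lgr4, a receptor for R-spondins, was at 47.1, 27.2 and 18.6 CPM at KO day 4, 40.0, 56.0 and 53.9 CPM at KO day 3 and 51.3, 44.7 and 46.8 CPM in controls. Replicate 1 of KO day 4 lay within the control range and the other KO day 4 libraries below it. For Lgr4 this was a log2 fold change of -0.61 at KO day 4 (SE 0.28, edgeR adjusted p = 0.14), or -1.06 without replicate 1 (edgeR adjusted p = 0.013). Without KO day 4 replicate 3, a library that stood apart, Lgr4 was at -0.36 (edgeR adjusted p = 0.33). Of 9 fits with 1 library left out, 1 called Lgr4. Fzd7, another Frizzled receptor, showed the same split, with 20.9, 9.06 and 7.16 CPM at KO day 4, 21.7, 26.3 and 24.7 CPM at KO day 3 and 19.8, 21.4 and 21.3 CPM in controls. Fzd7 had a log2 fold change of -0.73 (SE 0.33; edgeR adjusted p = 0.13), and of -1.36 without KO day 4 replicate 1 (edgeR adjusted p = 0.0051). That was the only call of Fzd7 in 9 fits with 1 library left out. Their log2 fold changes ran from -1.36 to -0.47, with edgeR adjusted p up to 0.31. Fzd6, a Frizzled receptor, and the coreceptors Lrp5 and Lrp6 had log2 fold changes from -0.61 to 0.23 at KO day 4 and from -0.08 to 0.10 at KO day 3. Under scaling by library size alone, Lrp6 was at -1.65 at KO day 4.

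The Dishevelled genes pass the signal on inside the cell. Dvl1 had 18.1, 15.6 and 15.7 CPM at KO day 4, 13.5, 16.1 and 14.1 CPM at KO day 3 and 19.8, 18.6 and 16.8 CPM in controls, with a log2 fold change of -0.16 (SE 0.20, edgeR adjusted p = 0.59) at KO day 4. Its KO day 3 libraries lay below all 3 controls, at a log2 fold change of -0.33 (edgeR adjusted p = 0.44). Dvl2 had 6.09, 5.41 and 3.13 CPM at KO day 4, 8.36, 7.67 and 5.99 CPM at KO day 3 and 8.27, 9.88 and 9.92 CPM in controls. This was a log2 fold change of -0.92 at KO day 4 (SE 0.31, edgeR adjusted p = 0.054), just outside the threshold, and DESeq2 called it (adjusted p = 0.024). The edgeR adjusted p was 0.045 without KO day 4 replicate 1 and 0.047 without KO day 3 replicate 1. Those were the only 2 calls in 9 fits with 1 library left out, and the edgeR adjusted p reached 0.15 in the others. Dvl2 shares 18.28% of its exon bases with Acadvl, a highly counted gene on the opposite strand, and the strand setting of the counting is not given in the sources used here, so its level is uncertain. Dvl3 had a log2 fold change of 0.20 at KO day 4 (edgeR adjusted p = 0.65), and of -1.68 under scaling by library size alone.

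No member of the destruction complex was called by the edgeR test described above, with all 9 libraries, the filter on low counts and no replicate block. Gsk3b at KO day 4 had an unadjusted p under 0.05. Csnk1a1, which encodes CK1α, the priming kinase for β-catenin, was the most abundant, with 179, 195 and 180 CPM at KO day 4, 147, 156 and 189 CPM at KO day 3 and 148, 146 and 156 CPM in controls. All 3 KO day 4 libraries lay above the controls, at a log2 fold change of 0.30 (SE 0.14; edgeR adjusted p = 0.15). Scaling by library size alone turned it to -1.59, and limma voom called Csnk1a1 higher (adjusted p = 0.045). Gsk3b, the kinase that marks β-catenin for degradation, was at 40.7, 33.1 and 26.4 CPM at KO day 4, 20.5, 13.7 and 6.91 CPM at KO day 3 and 23.9, 18.0 and 6.02 CPM in controls. Each KO day 4 library lay above every other library, and the controls themselves spread about 4-fold. KO day 4 had a log2 fold change of 1.07 against control (SE 0.47, edgeR adjusted p = 0.13) and of 1.30 against KO day 3 (SE 0.48, edgeR adjusted p = 0.093). Limma voom called Gsk3b higher at KO day 4 against control (adjusted p = 0.046), and against KO day 3 it was called by DESeq2 (adjusted p = 0.041) and by edgeR without the filter on low counts (adjusted p = 0.031). Of 9 fits with 1 library left out, 0 called Gsk3b against control. Against KO day 3, 1 did, without control replicate 3 (log2 fold change 1.29, edgeR adjusted p = 0.049). Its calls with the replicate block are given at the end. Under scaling by library size alone the sign of Gsk3b turned, to -0.75 against control and -0.22 against KO day 3, with no call. Apc and Axin1, the scaffolds of the complex, were at 0.91 (edgeR adjusted p = 0.33) and -0.23 (edgeR adjusted p = 0.50). For Apc, control replicate 3 stood at 0.85 CPM, against 8.46 and 9.39 CPM in the other controls, and scaling by library size alone turned its value to -0.90.

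Among the nuclear effectors edgeR called no member in any of the 3 comparisons. At KO day 4 against control 1, Tcf7l2, had an unadjusted p under 0.05, and DESeq2 called it (adjusted p = 0.048). Ctnnb1, which encodes β-catenin, was at 414, 414 and 362 CPM at KO day 4, 298, 360 and 190 CPM at KO day 3 and 330, 305 and 282 CPM in controls. The KO day 4 libraries all exceeded the controls, by a log2 fold change of 0.38 (SE 0.21, 95% confidence interval -0.08 to 0.83, edgeR adjusted p = 0.22), and KO day 3 spanned the control range. Under scaling by library size alone the value was -1.50. Of the TCF/LEF factors, which bind DNA, Tcf7l2 had 4.10, 5.56 and 10.5 CPM at KO day 4, 3.92, 2.77 and 2.09 CPM at KO day 3 and 3.45, 3.40 and 2.20 CPM in controls. This gave a log2 fold change of 1.13 at KO day 4 (SE 0.45, edgeR adjusted p = 0.094), with replicate 3, a library that stood apart, the highest, and -0.79 under scaling by library size alone. Tcf7 ran the other way in the same library, with 17.2, 9.06 and 2.24 CPM at KO day 4, against 14.2, 14.9 and 13.8 CPM at KO day 3 and 14.9, 14.2 and 14.7 CPM in controls. Tcf7 had a log2 fold change of -0.58 at KO day 4 (SE 0.46, edgeR adjusted p = 0.39), and of -0.15 without replicate 3.

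Lef1 was at most 0.70 CPM in any library, with 3 counts over the KO day 4 libraries and 35 over the controls. Tcf7l1, a TCF factor known as a repressor, had 0 counts in all 6 KO libraries and 4, 6 and 3 counts in controls. With 3 counts per group as the detection floor, it was 3.49-fold lower at KO day 3. At KO day 4, where fewer nuclear counts were made, the same floor gives 1.07-fold lower. Neither value covers the counting error of the 13 control counts, so neither is a lower limit. Bcl9 and Bcl9l, the adaptors between β-catenin and PYGO proteins, had log2 fold changes at KO day 4 of 0.56 (edgeR adjusted p = 0.28; -1.35 under scaling by library size alone) and -0.69 (edgeR adjusted p = 0.24). Pygo2, a chromatin-binding coactivator, had 22.4, 0.95 and 22.2 CPM at KO day 4, 38.5, 27.7 and 25.6 CPM at KO day 3 and 36.9, 39.6 and 18.6 CPM in controls. Its log2 fold change at KO day 4 was -1.07 (edgeR adjusted p = 0.27), and -0.52 without replicate 2 (edgeR adjusted p = 0.30).

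Of the 6 feedback targets tested, edgeR called 1 higher at KO day 4 (16.7%, beside 11.1% of all genes) and 0 lower (beside 11.5%). Nkd1 was the call, and the other 5 had log2 fold changes from -0.82 to -0.15. Nkd1 (ENSMUSG00000031661, chr8:88521354-88594884, plus strand) was at 8.67, 11.9 and 6.27 CPM at KO day 4, 3.15, 3.08 and 2.80 CPM at KO day 3 and 1.79, 2.28 and 2.02 CPM in controls. No library of any group overlapped with another group, and KO day 3 lay between the others. Its log2 fold change was 2.14 at KO day 4 against control (SE 0.36, 95% confidence interval 1.35 to 2.94, edgeR adjusted p = 0.0025) and 0.56 at KO day 3 (SE 0.35, edgeR adjusted p = 0.48). The KO day 4 call held in 18 alternatives, but scaling by library size alone gave 0.26, which was 2.20 above the median of all genes. KO day 4 against KO day 3 gave 1.58 (SE 0.36, edgeR adjusted p = 0.018). That call ended without KO day 3 replicate 2 (edgeR adjusted p = 0.065), without KO day 3 replicate 3 (edgeR adjusted p = 0.053) and without KO day 4 replicate 2 (edgeR adjusted p = 0.069).

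Axin2, a scaffold of the destruction complex and a direct target, was at 72.6, 48.8 and 42.1 CPM at KO day 4, 15.5, 61.2 and 54.2 CPM at KO day 3 and 58.7, 61.0 and 62.8 CPM in controls. The controls were close together, KO day 4 spread around them, and at KO day 3 replicate 1 stood far below the other libraries. The log2 fold change was -0.15 at KO day 4 (SE 0.39, 95% confidence interval -1.01 to 0.70, edgeR adjusted p = 0.81) and -0.47 at KO day 3 (SE 0.39, edgeR adjusted p = 0.62). Without KO day 3 replicate 1, the value at KO day 3 was -0.07 (SE 0.21, edgeR adjusted p = 0.91). Axin2 and Nkd1 are both feedback targets, but the difference between their fold changes was not tested. Notum, a secreted enzyme that removes the lipid from Wnt ligands, had 5, 5 and 0 counts at KO day 4, 0, 3 and 8 counts at KO day 3 and 5, 7 and 0 counts in controls, too few to compare. The receptor-removing ligases Rnf43 and Znrf3 had log2 fold changes at KO day 4 of -0.82 (SE 0.42, edgeR adjusted p = 0.18) and -0.16 (edgeR adjusted p = 0.79). Apcdd1, a membrane inhibitor of the pathway, was at -0.28 (edgeR adjusted p = 0.80). Sp5, a transcription factor, had 13.4, 12.2 and 3.36 CPM at KO day 4, 16.8, 19.5 and 15.7 CPM at KO day 3 and 18.5, 17.0 and 14.5 CPM in controls. All 3 KO day 4 libraries were below the lowest control, with replicate 3 the lowest. Sp5 had a log2 fold change at KO day 4 of -0.76 (SE 0.38, edgeR adjusted p = 0.17), and -0.39 without replicate 3.

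The further crypt targets gave no edgeR call at either KO time, and 1 at each time had an unadjusted p under 0.05, Cd44 at KO day 4 and Myc at KO day 3. Cd44, an adhesion receptor of crypt cells, had the highest CPM of the 6, not corrected for length, with 86.8, 95.4 and 62.9 CPM at KO day 4, 55.9, 65.8 and 76.0 CPM at KO day 3 and 60.2, 64.7 and 54.2 CPM in controls. Replicate 3 of KO day 4 lay within the control range. Cd44 had a log2 fold change of 0.45 (SE 0.19, edgeR adjusted p = 0.10), and of 0.60 without that library (edgeR adjusted p = 0.032). That was the only call in 9 fits with 1 library left out, and the edgeR adjusted p reached 0.30 in the others. Limma voom called Cd44 with all libraries (adjusted p = 0.015). Myc, the proliferation-associated transcription factor, was at 40.2, 32.1 and 36.3 CPM at KO day 4, 55.1, 38.3 and 40.7 CPM at KO day 3 and 29.5, 30.6 and 28.2 CPM in controls. Every KO library exceeded every control, yet the change was small. KO day 4 against control gave 0.30 (SE 0.18, edgeR adjusted p = 0.26) and KO day 3 against control 0.60 (SE 0.18, edgeR adjusted p = 0.14). Myc was called at KO day 3 by DESeq2 (adjusted p = 0.049) and by limma voom (adjusted p = 0.045). Without KO day 3 replicate 1, where it was highest, the edgeR value was 0.43 (adjusted p = 0.24). Scaling by library size alone turned the KO day 4 values of Cd44 to -1.42 and of Myc to -1.59.

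Ephb2 and Ephb3 encode receptors that position cells along the crypt, and Efnb1 a ligand of such receptors. Ephb2 had 51.1, 14.6 and 22.2 CPM at KO day 4, 8.02, 42.3 and 61.7 CPM at KO day 3 and 37.0, 61.6 and 56.4 CPM in controls. The range from lowest to highest library within each KO group exceeded the difference between its mean and the control mean. Its log2 fold change stood at -0.81 at KO day 4 (SE 0.60, edgeR adjusted p = 0.35) and -0.46 at KO day 3 (SE 0.59, edgeR adjusted p = 0.77), and 0.01 at KO day 3 without replicate 1. Ephb3 was nearly level, with 29.8, 27.5 and 29.8 CPM at KO day 4, 25.2, 34.5 and 35.1 CPM at KO day 3 and 33.0, 23.9 and 28.1 CPM in controls. At KO day 4 Ephb3 had a log2 fold change of 0.03 (SE 0.20, 95% confidence interval -0.40 to 0.46, edgeR adjusted p = 0.92), and -1.84 under scaling by library size alone. Efnb1 had a log2 fold change of -0.43 (edgeR adjusted p = 0.25) at KO day 4. Sox9, a transcription factor of crypt base cells, had one of 0.19 at KO day 4 (SE 0.15, edgeR adjusted p = 0.40), or -1.71 under scaling by library size alone, and -0.12 at KO day 3 (SE 0.15, edgeR adjusted p = 0.77).

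**Figure D4:**
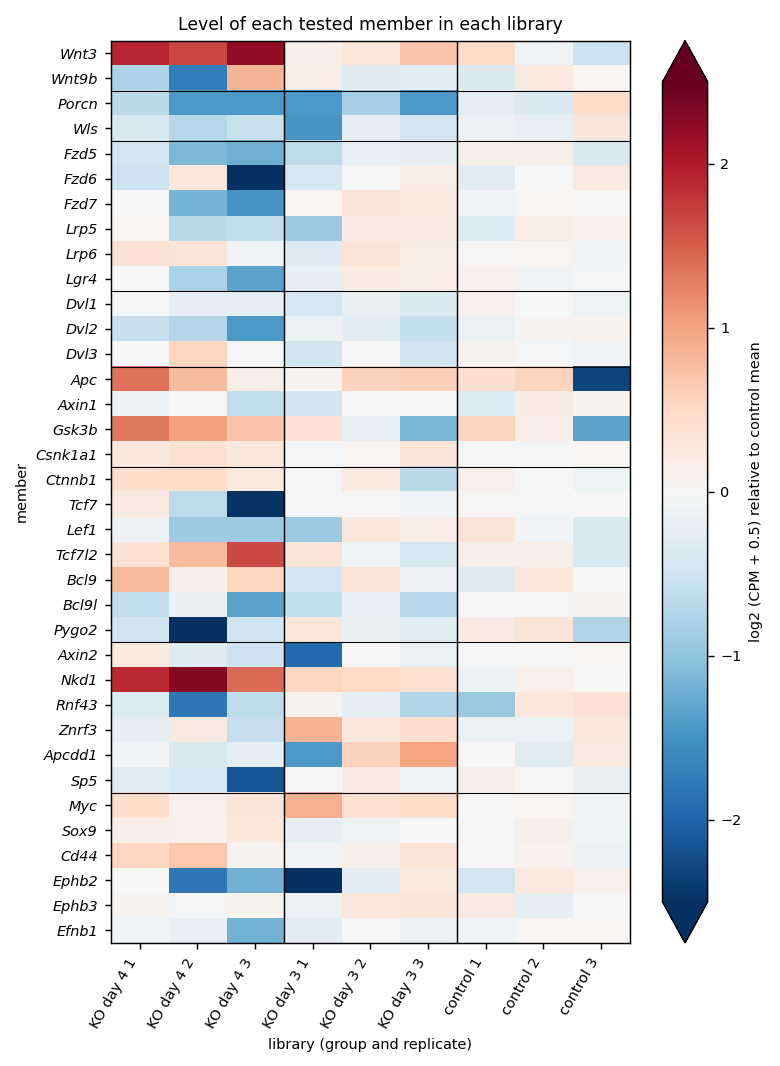
Level of each tested member (rows, grouped by role) in each library (columns), as log2 of CPM plus 0.5 relative to the control mean, with red above and blue below. Wnt3 and Nkd1 are red across KO day 4, and KO day 3 replicate 1 and KO day 4 replicate 3 hold several of the deepest blue cells, among them Axin2 and Ephb2 at 15.5 and 8.02 CPM and Tcf7 at 2.24 CPM.

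Single libraries held the lowest level of many members. In the library labelled KO day 4 replicate 3, 11 of the 36 tested members had their lowest level of all 9 libraries, among them Tcf7, Sp5, Dvl2, Lgr4, Fzd7 and Efnb1. In KO day 3 replicate 1 there were 10 such members, among them Axin2, Ephb2, Wls and Apcdd1, while Myc was at its highest. The other libraries held 0 to 5 each. The same count was not made over all tested genes, so these numbers show nothing particular to the members. Stem cell markers stood at 2576 CPM of nuclear counts in KO day 4 replicate 3 and at 6329 and 7220 in the other KO day 4 libraries, and mast cell markers at 180 CPM in KO day 3 replicate 1 and at 19.3 and 54.6 in the other KO day 3 libraries. Their part in these levels was not tested. T cell and innate lymphoid markers were at most 0.18 CPM at KO day 4, with 7 of 8 at 0 counts, while mast cell, leukocyte and myeloid markers were higher there than in every control, as given above. Endothelial markers were at 6.98 to 27.1 CPM at KO day 4, against 0.55 to 1.92 at KO day 3 and 0 to 0.40 in controls. Of these 3 markers only 1, Pecam1, passed the filter, and it was called higher at KO day 4 against control. Cdh5 was at 0 counts in every group. Stromal markers were at 29.6 to 48.7 CPM at KO day 4, against 9.86 to 17.3 at KO day 3 and 4.53 to 8.56 in controls. Of these 7 markers 2 were tested. At KO day 4 against control Vim was called higher (log2 fold change 3.85), and Pdgfrb was not called (-1.52, edgeR adjusted p = 0.46). Pdgfra was at 0 counts in every group. These sums thus rest on few markers.

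Levels of different genes were compared per kilobase of exon. Ctnnb1 was highest in every group, at 76.3 ± 5.72 CPM per kilobase at KO day 4, 54.5 ± 16.5 at KO day 3 and 58.9 ± 4.63 in controls (SD, n = 3). Csnk1a1 followed in controls at 14.3 ± 0.50 CPM per kilobase (SD, n = 3). Axin2 at 11.0 ± 0.37, Myc at 10.8 ± 0.45 and Sox9 at 10.3 ± 0.95 came next in controls and did not differ beyond their spread. Wnt3 stood at 10.3 ± 2.03 CPM per kilobase at KO day 4, against 3.40 ± 0.73 at KO day 3 and 2.54 ± 0.96 in controls, so that at KO day 4 this ligand was near the level of Axin2 there, 9.90 ± 2.91 (SD, n = 3). Nkd1 remained low throughout, at 1.96 ± 0.62 CPM per kilobase at KO day 4, 0.66 ± 0.04 at KO day 3 and 0.45 ± 0.05 in controls (SD, n = 3).

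The wider pathway was read from 5 further lists of 114 genes in all, of which 78 passed the filter. At KO day 4 against control 18 were called higher and 10 lower, 35.9% of those tested beside 22.5% of all genes. At KO day 3 edgeR called 0, beside 0.44% of all genes, and gave 7 at an unadjusted p under 0.05, beside 2123 of all 13405 genes. DESeq2 called 4 and limma voom 7. In KO day 4 against KO day 3, 9 were higher and 5 lower, 17.9% of those tested beside 12.5% of all genes. Under scaling by library size alone 12 of the 18 higher at KO day 4 had a negative log2 fold change, so the rises below are relative to the bulk of genes. In the lists that follow, counts higher at KO day 4 stand beside 11.1% of all genes and counts lower beside 11.5%. Among 4 tested ligands and secreted modulators, 2 were lower at KO day 4 and 0 higher, with 0 higher at an unadjusted p under 0.05 and by DESeq2 and 1 by limma voom. Sfrp5, a secreted Wnt antagonist, fell to 7.62, 8.74 and 4.25 CPM at KO day 4, against 65.7, 32.5 and 19.6 CPM at KO day 3 and 40.5, 32.7 and 66.0 CPM in controls (log2 fold change -2.73, SE 0.46, edgeR adjusted p = 0.0024). Wnt5b, a ligand of β-catenin-independent signalling, had 0 counts over the KO day 4 libraries and 124 over the controls (edgeR adjusted p = 0.011). With the KO day 4 libraries together taken at 3 counts, Wnt5b was 10.2-fold lower. Both calls held with any single library left out.

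Of 13 other receptor genes tested, 1 rose (7.69%) and 4 fell (30.8%) at KO day 4. Fzd9, a Frizzled receptor, rose to 13.2, 22.6 and 31.1 CPM at KO day 4, against 6.31, 4.90 and 7.09 CPM at KO day 3 and 5.47, 1.98 and 3.68 CPM in controls (log2 fold change 2.58, edgeR adjusted p = 0.0019). Ptk7, a pseudokinase coreceptor, fell by 2.41 in log2 units (edgeR adjusted p = 0.0038). Fzd2, a further Frizzled receptor, fell by 2.48 (edgeR adjusted p = 0.018) and Tspan12, a tetraspanin that acts with Frizzled receptors, by 1.01 (edgeR adjusted p = 0.022). The Fzd2 call ended without control replicate 3 or KO day 4 replicate 2 (adjusted p up to 0.064), and that of Tspan12 without any 1 control or KO day 4 replicate 2 (up to 0.062).

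In the cytoplasm 6 of 23 tested genes rose (26.1%) and 0 fell at KO day 4 by edgeR, with 9 higher and 2 lower at an unadjusted p under 0.05. DESeq2 called 2 lower and limma voom 1. Macf1, a cytoskeletal linker, had a log2 fold change of 1.68 (edgeR adjusted p = 0.0024). Csnk1e, a casein kinase, had one of 0.83 (edgeR adjusted p = 0.018), Tnks, which marks AXIN for degradation, 0.77 (edgeR adjusted p = 0.024) and Fbxw11, which recognises phosphorylated β-catenin, 0.63 (edgeR adjusted p = 0.024). The last 3 calls ended when any 1 control was left out, that of Fbxw11 also without KO day 4 replicate 2 and that of Tnks also without KO day 4 replicate 1, with adjusted p up to 0.081 for Csnk1e, 0.108 for Tnks and 0.098 for Fbxw11. Of 20 nuclear cofactors tested 4 rose (20.0%) and 0 fell by edgeR, with 7 higher and 0 lower at an unadjusted p under 0.05, and DESeq2 and limma voom also called 0 lower. By log2 fold change they were Ep300, an acetyltransferase coactivator, at 1.10 (edgeR adjusted p = 0.0077), Tbl1xr1, a corepressor exchange factor, at 1.89 (edgeR adjusted p = 0.011), Ctbp2, a corepressor, at 0.69 (edgeR adjusted p = 0.016), and Cdc73, a subunit of the PAF complex, at 0.73 (edgeR adjusted p = 0.018). The Ctbp2 call ended without control replicate 1 or 3 (adjusted p up to 0.076), and that of Cdc73 without any 1 control or KO day 4 replicate 2 (up to 0.076).

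Of 19 other genes listed as Wnt targets of the crypt, 7 rose (36.8%) and 4 fell (21.1%) at KO day 4. Mmp7, a metalloproteinase of Paneth cells, had a log2 fold change of 2.26 (SE 0.35; edgeR adjusted p = 0.0017). Ascl2, a transcription factor of stem cells, fell to 20.04, 26.2 and 16.3 CPM at KO day 4, against 86.4, 47.9 and 41.8 CPM at KO day 3 and 66.2, 51.3 and 63.2 CPM in controls (log2 fold change -1.52, SE 0.28, edgeR adjusted p = 0.0039). Jun, an AP-1 subunit, fell by 0.88 (edgeR adjusted p = 0.0067) and Slc12a2, an ion transporter, by 1.21 (edgeR adjusted p = 0.0094). Mmp7 is also on the Paneth cell marker list, and Ascl2 and Slc12a2 on the stem cell list, and those cell type sums moved in the same directions, as given above. The part of that shift in these calls was not tested. In KO day 4 against KO day 3, the gene of each list with the smallest adjusted p was Sfrp5 (-2.48), Fzd9 (1.86), Macf1 (1.61), Tbl1xr1 (1.74) and Mmp7 (1.84). Of these, the Fzd9 call ended without KO day 3 replicate 2 (adjusted p = 0.064), and that of Tbl1xr1 without KO day 3 replicates 2 or 3 or KO day 4 replicate 3 (adjusted p up to 0.092).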

How the data were processed

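The deposited table holds raw counts of reads for every Ensembl gene, unnormalized, with a column per library. The submitters' processing notes name HISAT2 2.0.4 and the build GRCm38. Which tool counted the reads, with what strand setting and annotation, is not given in the sources used here, so an overlapping or antisense gene may share reads with a member. GENCODE M21, of the same build, named 51884 of 57180 identifiers, and 5296 were kept without a symbol. Upstream sequences are from a RefSeq table. The members, lists and tests were chosen with earlier results of these data known.

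Counts were fitted in R 4.3.3 with edgeR 4.0.16 (TMM factors, quasi-likelihood F-test, two-sided, all 9 libraries in 1 fit). The filterByExpr defaults (10 counts in a library, 15 in all) left 13405 genes. TMM factors were 0.40 to 0.50 at KO day 4, 1.22 to 1.40 at KO day 3 and 1.44 to 1.83 in controls. Intervals for fold changes use the fit's degrees of freedom. Marker sums are CPM of counts on annotated nuclear chromosomes. A group with 0 counts was taken at 3 counts in all to give a fold change, which leaves out the counting error of the other group. Ratios of low counts carry exact binomial intervals at 95% confidence, and these cover counting error only. The procedure was tested on simulated data. The simulated libraries all followed the control profile apart from a set of changed genes. They held no shift of counts to mitochondrial transcripts, so the test under such a shift was not checked.

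Libraries of a group differed by more than sampling noise (chi-square of 12.8 to 89.2 per degree of freedom). The p-values measure the spread between these libraries, which may be technical. There were 20 alternatives, among them RLE size factors, library size alone, removal of mitochondrial transcripts, other filters, DESeq2 1.42.0, limma 3.58.1 voom with quality weights, glmTreat against a fold of 1.5, a replicate block and each library left out in turn. Values in every library are given for members called in any comparison, for Axin2, Nkd1, Notum, Ctnnb1, Myc, Ephb2 and Ephb3, and for the member of each role with the highest CPM. Fzd7, Dvl2, Gsk3b, Tcf7, Tcf7l2, Pygo2 and Sp5 are given so as well, chosen after their values were seen. Of each further list, up to 4 called genes with the smallest adjusted p are named.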

Additional observations from a re-analysis of the deposited data

Results flagged for a closer look

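The 2 KO times differed by a direct test in Wnt3, at a log2 fold change of 1.59 for KO day 4 against KO day 3 (edgeR adjusted p = 0.0093), and in Nkd1, at 1.58 (edgeR adjusted p = 0.018). All 3 KO day 4 libraries exceeded all 3 KO day 3 libraries for both genes, and the values with single libraries left out are given with each gene above.

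Sox9 was picked out because every KO day 4 library, at 47.6, 46.6 and 51.5 CPM, lay above the control mean of 42.6 CPM, and every KO day 3 library, at 36.0, 39.01 and 42.5 CPM, below it. The picking rule itself involves no test, so by that rule the difference was not tested. The fitted value for KO day 4 against KO day 3 was 0.31 (SE 0.15, edgeR adjusted p = 0.20), which did not pass the threshold.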

How the results depend on the processing

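No alternative reversed a called member. Scaling by library size alone moved the all-gene median of the log2 fold change to -1.95 at KO day 4, -0.39 at KO day 3 and -1.54 for KO day 4 against KO day 3. It called 0 members higher and 31 lower at KO day 4, and 0 higher and 27 lower for KO day 4 against KO day 3. It turned the sign of 12 members at KO day 4. Of these it called 9 lower, Cd44 (-1.42), Ephb3 (-1.84), Myc (-1.59), Sox9 (-1.71), Csnk1a1 (-1.59), Bcl9 (-1.35), Ctnnb1 (-1.50), Lrp6 (-1.65) and Dvl3 (-1.68), and not Gsk3b (-0.75), Tcf7l2 (-0.79) and Apc (-0.90). For KO day 4 against KO day 3 it turned 14 and called 9 of them lower, Cd44 (-1.19), Sox9 (-1.22), Csnk1a1 (-1.35), Axin2 (-1.14), Wls (-1.41), Ctnnb1 (-1.02), Lrp6 (-1.36), Dvl1 (-1.33) and Dvl3 (-0.99), and not Gsk3b (-0.22), Tcf7l2 (-0.38), Bcl9 (-0.90), Apc (-1.03) and Porcn (-0.74). At KO day 3 it turned 7, to between -0.31 and -0.16, and called 0 of them. Members above the median of all genes numbered 14 at KO day 4 under this scaling and under TMM. Other counts moved as follows, and the cause was not tested. At KO day 3, DESeq2 and limma voom called 1 member higher. At KO day 4, the higher count was 1 with a mean CPM of at least 5, where Nkd1 was not tested, and 5 with limma voom. The lower count was 2 with that filter and with DESeq2, 0 with glmTreat, and 0 to 4 with single libraries left out. For KO day 4 against KO day 3, the higher count was 1 with the CPM filter and with glmTreat, 4 with DESeq2, and 1 to 3 with single libraries left out. The lower count was 1 without the filter on low counts, with DESeq2 and with limma voom, and 0 to 2 with single libraries left out. Same-numbered libraries did not pair (correlations of deviations from -0.05 to 0.13). With the replicate block, 3 members were higher and 1 lower at KO day 4, with Gsk3b added at 1.25 (edgeR adjusted p = 0.016), and 3 were higher against KO day 3, with Gsk3b at 1.42 (edgeR adjusted p = 0.017). Depth limits Wnt6, Notum, Tcf7l1, Lef1 and Porcn, and a count of 3 was worth 0.35 to 0.67 CPM in a KO day 4 library.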
